A study of Mus musculus with 6 samples.

Results

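Zbtb16, Nfil3, Eomes, Tbx21, Klrd1, Ncr1, Klrb1c, Klrk1, Gzmb and Prf1 are 10 genes of the natural killer (NK) and innate lymphoid program, and their promoters were examined for trimethylation of lysine 4 on histone H3 (H3K4me3) in 2 mouse lymphoid progenitor lines. The genes were taken by name from the 21938 protein-coding genes of the GENCODE vM21 annotation on the mouse build GRCm38 (mm10). A promoter was called marked where a peak overlapped the 2500 bp on either side of any annotated transcription start site (TSS) of the gene. By that definition each line marked 2 of the 10 promoters. Nfil3 was marked in both lines, Tbx21 only in Scid.adh.2C2, the pro-T line, and Klrd1 only in the progenitor B line, and the other 7 promoters had no peak in either line.

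The study compared early T and early B lineage cells. Scid.adh.2C2 is a pro-T line, a subclone of Scid.adh that derives from a thymic tumour of CB17-Prkdc scid mice, which lack functional DNA-PKcs and cannot complete antigen receptor gene rearrangement. The progenitor B line is Abelson-transformed. Both were grown in culture without further treatment, and each lineage is represented by 1 tumour-derived or transformed line. From each line the authors made 2 ChIP libraries with an antibody to H3K4me3 and 1 input library, and combined them into 1 peak list per line. Each list gives a fold enrichment over background for every peak, with both replicates merged. The spread between replicates and the depth of the libraries are therefore unknown, and no difference between the lines was tested. The fold enrichments come from separate calls with no common scale, so each was read against the other peaks of its own list. An unmarked promoter is thus one where the authors' peak calling left nothing in the list, which can hide a weaker signal.

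H3K4me3 is deposited around the start sites of active and poised genes, most broadly at promoters rich in CpG dinucleotides. NK cells and the helper-like innate lymphoid cells arise from the same lymphoid progenitors as T and B cells, but need no rearranged antigen receptor. The transcription factors NFIL3, EOMES, T-bet (Tbx21) and PLZF (Zbtb16) direct their development, germline-encoded receptors such as NKG2D (Klrk1) and NKp46 (Ncr1) detect target cells, and granzyme B and perforin kill them. T cells share much of this program, and PLZF and T-bet in particular also act in NKT cells and in helper and cytotoxic T cells.

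The promoter sequences of 8 of the 10 genes were found in the RefSeq table of GRCm38.p6, each covering 250 bases before and 50 bases after a start site. Klrd1 and Zbtb16 were not in that table. The promoters of Nfil3 (chr13:52980990-52981289, minus strand), Tbx21 (chr11:97115282-97115581, minus strand), Eomes (chr9:118477939-118478238, plus strand) and Gzmb (chr14:56262285-56262584, minus strand) are shown. These promoters differ widely in CpG count and include marked and unmarked ones. They are written 5′ to 3′ on the strand of the gene, with CpG dinucleotides in capitals.
Nfil3: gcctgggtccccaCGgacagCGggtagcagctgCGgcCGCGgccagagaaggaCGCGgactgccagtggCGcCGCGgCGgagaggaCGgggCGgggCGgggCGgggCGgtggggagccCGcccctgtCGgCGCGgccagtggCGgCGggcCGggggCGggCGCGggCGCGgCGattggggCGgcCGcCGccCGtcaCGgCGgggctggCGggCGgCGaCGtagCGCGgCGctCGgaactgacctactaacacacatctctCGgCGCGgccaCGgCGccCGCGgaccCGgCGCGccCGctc
Tbx21: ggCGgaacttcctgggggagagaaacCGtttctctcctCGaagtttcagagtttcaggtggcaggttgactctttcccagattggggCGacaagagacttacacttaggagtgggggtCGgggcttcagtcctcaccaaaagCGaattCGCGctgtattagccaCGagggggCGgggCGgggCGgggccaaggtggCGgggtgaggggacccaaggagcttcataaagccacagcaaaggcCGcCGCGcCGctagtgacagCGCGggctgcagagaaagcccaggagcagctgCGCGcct
Eomes: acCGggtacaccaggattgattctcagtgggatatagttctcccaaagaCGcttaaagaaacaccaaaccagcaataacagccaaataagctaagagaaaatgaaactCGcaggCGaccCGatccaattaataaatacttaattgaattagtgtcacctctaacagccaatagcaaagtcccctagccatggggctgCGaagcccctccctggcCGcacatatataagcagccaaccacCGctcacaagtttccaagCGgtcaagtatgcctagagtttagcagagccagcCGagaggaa
Gzmb: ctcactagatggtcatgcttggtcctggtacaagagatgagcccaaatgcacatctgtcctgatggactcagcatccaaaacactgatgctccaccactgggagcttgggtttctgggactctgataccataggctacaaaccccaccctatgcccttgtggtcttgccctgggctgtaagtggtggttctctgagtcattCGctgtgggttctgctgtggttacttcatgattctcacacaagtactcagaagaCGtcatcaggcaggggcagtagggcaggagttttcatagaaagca
The Nfil3 promoter held 54 CpG dinucleotides in these 300 bases, Tbx21 21, Eomes 10 and Gzmb 2. The median over the 32851 promoters of the table was 7. Prf1 held 5, Klrk1 4, Klrb1c 1 and Ncr1 0. Of the 8 promoters, that of Nfil3, marked in both lines, was the densest in CpG. Eomes was above the median but unmarked, and the 5 receptor and effector genes in the table were below it. Klrd1 and Zbtb16 have no count here, and a link between CpG and the mark was not tested.

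The labels of the lines were checked against lineage markers. All 6 T lineage markers (Cd3e, Cd3g, Thy1, Gata3, Tcf7 and Bcl11b) were marked in Scid.adh.2C2, at 33.2-fold to 41.5-fold, and the B lineage markers Ebf1, Pax5, Cd79a, Cd79b and Vpreb1 were marked in the progenitor B line, at 21.2-fold to 29.0-fold. The exceptions were Vpreb1, which was also marked in Scid.adh.2C2 (29.9-fold), and Tcf7, which was also marked in the progenitor B line (15.2-fold). The lists held 15513 peaks with a median of 20.3-fold in Scid.adh.2C2 and 19604 peaks with a median of 15.4-fold in the progenitor B line.

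Over all protein-coding genes, 45.5% had a promoter peak in Scid.adh.2C2 and 48.2% in the progenitor B line, against 20% of the 10 NK and innate lymphoid genes in each line. Across the genome 42.2% of the genes were marked in both lines, 3.28% in Scid.adh.2C2 only, 5.97% in the progenitor B line only and 48.5% in neither. Of the 10 genes, 1 was marked in both, 1 in Scid.adh.2C2 only, 1 in the progenitor B line only and 7 in neither. Because the libraries were made from bulk cells, a mark carried by a minority of the cells and a low mark in all of them cannot be told apart.

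**Figure D1:**
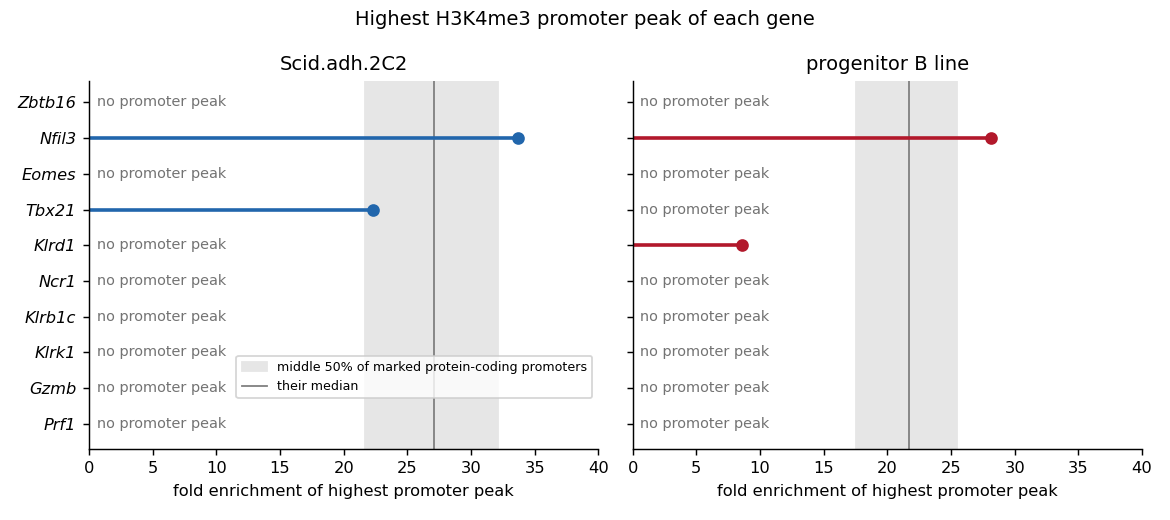
Fold enrichment of the highest H3K4me3 promoter peak of each of the 10 genes in Scid.adh.2C2 (left) and the progenitor B line (right), on a linear axis, with the middle 50% of the marked protein-coding promoters of that line in grey and their median as a line. Nfil3 lay above the grey band in both lines (33.7-fold and 28.2-fold), Tbx21 inside it in Scid.adh.2C2 (22.3-fold) and Klrd1 far below it in the progenitor B line (8.55-fold); there is 1 combined list per line, so no error is drawn.

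Nfil3, which encodes the basic leucine zipper factor needed for the earliest innate lymphoid progenitors, carried the strongest mark of the 10 genes in either line. The gene lies on the minus strand of chromosome 13 (chr13:52967209-52981073) with 1 annotated TSS at its upper end. In Scid.adh.2C2 a peak at chr13:52979908-52982655 spanned the TSS over 2748 bp with 33.7-fold enrichment (−log10 p of 138), which ranked 1513 in the list. It was at the 90.3 percentile of all peaks and at the 81.9 percentile of the 9980 marked protein-coding promoters, whose median was 27.1-fold. In the progenitor B line the highest peak, at chr13:52981196-52983066, reached 28.2-fold (−log10 p of 169) over 1871 bp and ranked 1048, at the 94.7 percentile of the list and the 88.1 percentile of the 10570 marked promoters, whose median was 21.7-fold. Nfil3 lay above the 75th percentile of marked promoters in both lines (32.1-fold and 25.5-fold).

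The called peaks at Nfil3 were divided differently in the lists. Where 1 peak ends and the next begins depends on the peak calling, with 1 list per line. A difference in the mark itself was not tested. In Scid.adh.2C2 the peak over the TSS was the higher one, with its summit 620 bp downstream of the TSS, and a short second peak of 287 bp (chr13:52982748-52983034, 12.1-fold) had its summit at -1801 bp. In the progenitor B line the higher peak lay wholly upstream, with its summit at -1309 bp, and the peak over the TSS and the 5′ part of the gene (chr13:52975833-52981091) reached 16.9-fold with its summit 782 bp downstream. That peak was 5259 bp wide, at the 98.3 percentile of widths in its list. The break between the peaks fell from -1582 to -1675 bp in Scid.adh.2C2 and from -18 to -123 bp in the progenitor B line. Peaks covered 3035 bp of the promoter window in Scid.adh.2C2 and 4390 bp in the progenitor B line, where the median marked promoter had 2294 bp and 2638.5 bp. More than 1 promoter peak was common, at 25.8% of marked promoters in Scid.adh.2C2 and 33.2% in the progenitor B line. RefSeq gives 4 start sites for Nfil3, from position 52980193 to 52982878, and the most upstream of these lies in the upstream peak of both lists.

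The 300 bases around the summit of the upstream peak of the progenitor B line (chr13:52982232-52982531, minus strand, read from the GRCm38.p6 genome) are shown because the highest Nfil3 signal of that line lay there and not over the CpG-dense promoter printed above. CpG dinucleotides are in capitals.
Nfil3 upstream summit: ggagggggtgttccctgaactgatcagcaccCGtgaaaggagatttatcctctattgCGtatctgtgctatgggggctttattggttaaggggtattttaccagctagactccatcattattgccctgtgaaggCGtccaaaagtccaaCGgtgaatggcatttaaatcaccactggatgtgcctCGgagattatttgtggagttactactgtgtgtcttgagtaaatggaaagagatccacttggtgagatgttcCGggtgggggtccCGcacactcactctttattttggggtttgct
This stretch held 7 CpG dinucleotides, against 54 in the promoter.

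Tbx21 encodes T-bet, the T-box factor of NK cells, type 1 innate lymphoid cells and type 1 helper T cells. It lies on the minus strand of chromosome 11 (chr11:97098071-97115331) with 1 annotated TSS. In Scid.adh.2C2, 1 peak at chr11:97113187-97116242 spanned the TSS with 22.3-fold enrichment (−log10 p of 80.5) and its summit 440 bp downstream. The peak was 3056 bp wide, at the 91.2 percentile of widths in the list, and its covered length was at the 76.8 percentile of marked promoters. Its enrichment was at the 55.5 percentile of the list and the 27.4 percentile of marked promoters. Among marked promoters the Tbx21 mark was thus in the upper part by covered length and in the lower part by height. In the progenitor B line no peak lay within 2500 bp, and the nearest was 11050 bp upstream (chr11:97126381-97127925, 11.8-fold).

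Around Tbx21 the peaks of the lines did not overlap apart from the promoter of the neighbouring Tbkbp1, which encodes a TBK1-binding adaptor and was marked in both (22.8-fold in Scid.adh.2C2 and 17.6-fold in the progenitor B line). The progenitor B line had 2 further peaks upstream, at chr11:97131282-97133639 (10.1-fold) and chr11:97133770-97134072 (8.10-fold), and 1 downstream of the gene at chr11:97083135-97084757 (10.9-fold). Scid.adh.2C2 had 1 peak in the upstream interval, at chr11:97128865-97129147 (8.04-fold). None of these peaks overlapped an annotated gene, and all were below the median of their list.

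Eomes, the T-box factor of mature NK cells, had no promoter peak in either line. Of its 10 neighbouring genes, 4 were marked in Scid.adh.2C2 and 6 in the progenitor B line. The median over all coding genes was 5 in each line. The gene lies on the plus strand of chromosome 9 (chr9:118478212-118486132). The nearest peak was downstream of the gene in both lines, 10548 bp from the closest TSS in Scid.adh.2C2 (chr9:118489409-118489862, 12.4-fold) and 10638 bp in the progenitor B line (chr9:118489499-118490232, 7.39-fold). These peaks overlapped each other and lay within 2500 bp of a TSS of the noncoding gene Gm33460. The next peaks, also shared, were at the promoter of Golga4, which encodes a golgin of the trans-Golgi network (25.6-fold and 23.4-fold).

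Zbtb16, which encodes PLZF, the factor of innate lymphoid precursors and NKT cells, was without a promoter peak in both lines but carried peaks inside the gene in 1 of them. The gene spans 181926 bp of the minus strand of chromosome 9 (chr9:48654297-48836222). Scid.adh.2C2 had 7 peaks in it, all in introns, at 4.58-fold to 12.1-fold. They formed a group of 3 at 13252 to 16698 bp downstream of the principal TSS, a group of 3 at 29191 to 30980 bp, and a single peak at 124143 bp. The widest was the 2113 bp peak at chr9:48819717-48821829 (12.0-fold), beside the highest at chr9:48819247-48819643 (12.1-fold). All 7 were at or below the 29.7 percentile of their list. The progenitor B line had no peak in Zbtb16, and its nearest was 147586 bp away at the promoter of Usp28, a deubiquitinase gene.

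Peaks inside a gene with an unmarked promoter were infrequent. Of the 11958 unmarked genes of Scid.adh.2C2, 532 (4.45%) had any peak in the gene body and 4 had 7 or more. Of the 764 unmarked genes at least as long as Zbtb16, 125 had a body peak and 3 had 7 or more. The cut of 7 was taken from Zbtb16, which is itself among these genes, so these counts cannot show that it is unusual. Peaks lying close together were counted singly. The Zbtb16 peaks at chr9:48806047-48806316 and chr9:48822251-48822693 had reproducibility scores of 559 and 582, below the maximum of 1000. In the progenitor B line, 603 of 11368 unmarked genes (5.30%) had a body peak. The 300 bases around the summit of the highest Zbtb16 peak (chr9:48819268-48819567, minus strand, GRCm38.p6) are shown with CpG dinucleotides in capitals, because these intronic peaks were the only peaks found at the gene.
Zbtb16 intronic summit: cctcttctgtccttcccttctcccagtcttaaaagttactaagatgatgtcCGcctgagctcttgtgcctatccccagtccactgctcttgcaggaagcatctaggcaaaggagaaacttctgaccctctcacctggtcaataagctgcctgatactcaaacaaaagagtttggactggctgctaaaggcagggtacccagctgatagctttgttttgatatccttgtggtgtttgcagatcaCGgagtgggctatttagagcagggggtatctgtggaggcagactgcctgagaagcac
The stretch held 2 CpG dinucleotides, as few as the Gzmb promoter.

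**Figure D2:**
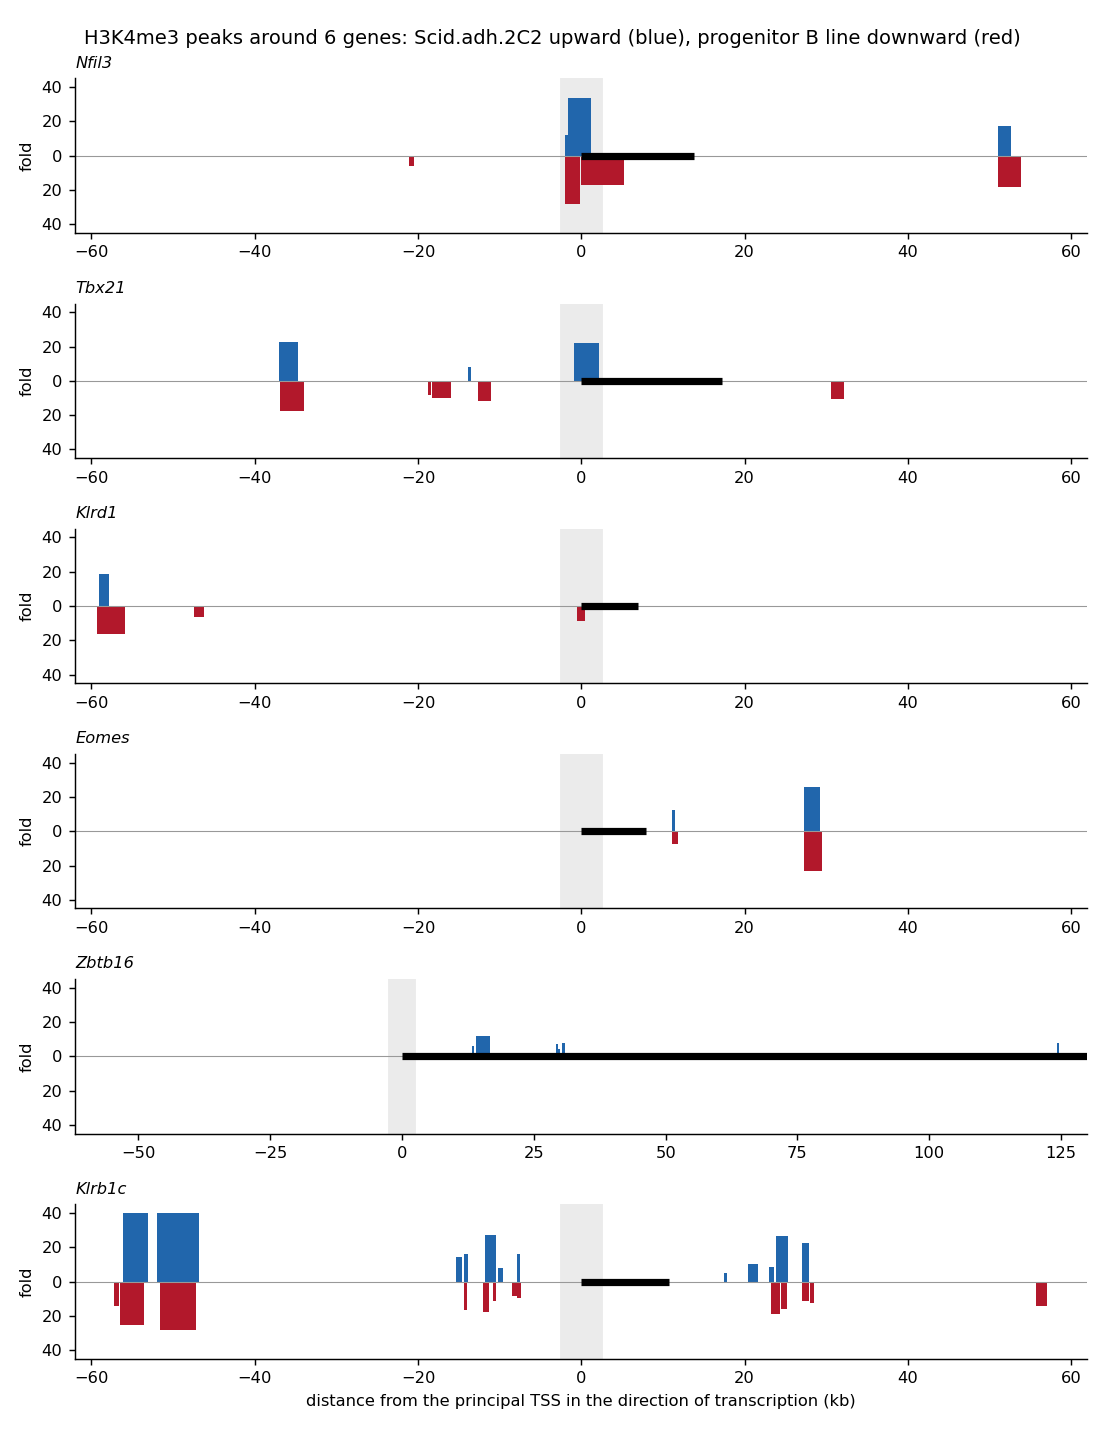
H3K4me3 peaks around 6 genes by distance from the principal TSS in the direction of transcription (kb), with fold enrichment drawn upward for Scid.adh.2C2 (blue) and downward for the progenitor B line (red), the gene body as a black bar and the 2500 bp on either side of the TSS in grey; fold enrichments have no common scale between the lines, and peaks narrower than 0.3 kb are drawn at that width. Peaks in the grey band are seen for Nfil3 in both lines, Tbx21 in Scid.adh.2C2 and Klrd1 in the progenitor B line, the 7 intronic Zbtb16 peaks are in Scid.adh.2C2 alone, and Klrb1c is flanked by peaks on both sides with none over the gene.

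Among the receptor genes, Klrd1 alone had a promoter peak. Klrd1 encodes CD94, the shared subunit of the CD94/NKG2 receptors for nonclassical MHC class I, and lies on the plus strand of chromosome 6 (chr6:129591782-129598775) in the NK gene complex. In the progenitor B line a peak of 915 bp at chr6:129591309-129592223 covered 3 of its 5 annotated start sites, with the summit 41 bp from the nearest. Its 8.55-fold enrichment (−log10 p of 39.4) was at the 17.9 percentile of the list and at the 1.80 percentile of marked promoters, and its covered length at the 3.45 percentile. It was one of the weakest promoter marks of the line. Every 31-base word in the peak occurred once in the genome. Its reproducibility score was the maximum of 1000, as for 18406 of the 19604 peaks of the list, and so does not set it apart. In Scid.adh.2C2 the nearest peak was 57850 bp away at the promoter of Gabarapl1 (18.7-fold), an autophagy gene that was also marked in the progenitor B line (16.1-fold). With peaks of at least 10-fold only, the Klrd1 promoter was unmarked in both lines. The genes for the CD94 partners, Klrc1, Klrc2 and Klrc3, were unmarked in both lines.

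Klrk1, which encodes the activating receptor NKG2D (chr6:129610323-129623864, minus strand), had no promoter peak in either line. The nearest peak was 88649 bp away in Scid.adh.2C2, at Gabarapl1, and 30358 bp away in the progenitor B line, which was the Klrd1 peak itself. Ncr1, which encodes NKp46 (chr7:4337724-4345164, plus strand), was likewise unmarked, with the nearest peak 107071 bp away in Scid.adh.2C2 and 106981 bp in the progenitor B line, at the promoter of the retinol dehydrogenase gene Rdh13 in both. That peak reached 38.0-fold and 18.1-fold.

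Klrb1c, which encodes the NK1.1 antigen (chr6:128778485-128789215, minus strand), was unmarked at its 3 start sites but lay between groups of peaks. Within 60 kb of the gene there were 12 peaks in Scid.adh.2C2, at 5.25-fold to 40.1-fold, and 13 in the progenitor B line, at 8.33-fold to 28.2-fold, of which 8 and 9 overlapped a peak of the other line. The nearest was 6903 bp upstream in Scid.adh.2C2 (chr6:128796118-128796467, 16.2-fold) and 6812 bp upstream in the progenitor B line (chr6:128796027-128796460, 9.56-fold). On the upstream side, 5 peaks in each line within 30 kb were intronic in the annotated coding gene Gm44511 (chr6:128780285-128826315), which overlaps Klrb1c on the same strand, and none was at a TSS. On the downstream side Scid.adh.2C2 had 5 peaks (5.25-fold to 26.5-fold) and the progenitor B line had 4 (11.6-fold to 19.0-fold), all intergenic.

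The sequence under these flanking peaks was in part repeated. Of the 31-base words in single peaks, 67.5% to 98.7% occurred once in the genome downstream and 68.1% to 95.1% upstream in Scid.adh.2C2, and 56.4% to 76.3% and 49.7% to 100% in the progenitor B line. A downstream peak of Scid.adh.2C2 (chr6:128760774-128761656) shared 25.4% of its words with an upstream one (chr6:128799119-128800398), and a pair in the progenitor B line (chr6:128760157-128760642 and chr6:128799108-128799431) shared 32.5%. Further upstream, a peak of 5201 bp at chr6:128835432-128840632 with 40.1-fold enrichment in Scid.adh.2C2, matched by 28.2-fold in the progenitor B line, overlapped no annotated gene. How reads with several matches were treated is not given in the sources used here, and the part of the repeats in these peaks was not tested. In the 2500 bp on either side of the principal TSS, 68.6% of 31-base words occurred once in the genome for Klrb1c and 73.3% for Ncr1, against 92.9% to 99.8% for the other 8 genes.

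Klrb1c, Klrd1 and Klrk1 belong to the NK gene complex, which holds 24 killer cell lectin-like receptor genes among 43 coding genes in chr6:128609227-131247362. Over all coding genes, 45.5% were marked in Scid.adh.2C2 and 48.2% in the progenitor B line. In Scid.adh.2C2, 5 of the 43 were marked (Klrb1f, Cd69, Clec2d, Gabarapl1 and Clec12a). In the progenitor B line, 9 were marked, namely Klrb1f, Cd69, Clec2d, Gabarapl1, Klrd1, Clec2i, Clec1a, Clec9a and BC035044. Of these, Clec2i and BC035044 were called by the same peak (chr6:128887022-128891752, 16.5-fold). Scid.adh.2C2 had 20 peaks in the complex and the progenitor B line had 34, of which 11 and 20 were outside any annotated promoter. All of them lay in the part up to Klrd1. From the end of Klrd1 to the end of the complex, neither list had a peak. This part spans 1.649 Mb with 19 coding genes, of which 17 are killer cell lectin-like receptor genes. The genes were counted on the reference build GRCm38. Whether Scid.adh.2C2, which derives from CB17 mice, or the progenitor B line carries all of them was not tested. Within this part the uniqueness of 31-base words was computed only around the principal TSS of Klrk1 (99.8%). Whether reads can be placed uniquely in the rest was not tested. The next marked gene beyond was Magohb, an exon junction complex gene, in both lines.

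Gzmb and Prf1, the cytotoxic effector genes, were unmarked in both lines. Among the unmarked genes of Scid.adh.2C2 and the progenitor B line, the distance of Prf1 to its nearest peak was at the 60.8 and 60.4 percentiles. For Gzmb it was at the 74.8 and 75.2 percentiles. Gzmb encodes granzyme B, the serine protease that starts apoptosis in target cells, and lies on the minus strand of chromosome 14 (chr14:56258838-56262260). Its nearest peak was 308511 bp away in Scid.adh.2C2 and 308191 bp in the progenitor B line, at the promoter of the centriole gene Cenpj in both. The cluster of granzyme and mast cell protease genes to which Gzmb belongs (chr14:55941451-56262260, 14 family genes among 15 coding genes) held 0 peaks in either line. Over all coding genes, 45.5% had a promoter peak in Scid.adh.2C2 and 48.2% in the progenitor B line. Prf1 encodes perforin, the pore-forming protein of cytotoxic granules, and lies on the plus strand of chromosome 10 (chr10:61297833-61304680). Its nearest peak was 149268 bp away at Sgpl1, a sphingosine phosphate lyase gene, in Scid.adh.2C2 and 147633 bp away at Eif4ebp2, a translation repressor gene, in the progenitor B line.

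Set against other unmarked genes, the unmarked genes of the group fell on both sides of the median. The median distance from an unmarked gene to the nearest peak was 91470.5 bp in Scid.adh.2C2 and 91885.5 bp in the progenitor B line, and for the unmarked genes of the group 73249.5 bp and 68669.5 bp. Klrb1c was among the nearest, at the 5.97 percentile in Scid.adh.2C2 and the 6.28 percentile in the progenitor B line, followed by Eomes at the 9.91 and 10.9 percentiles. Gzmb was the farthest, at the 74.8 and 75.2 percentiles. Zbtb16 was at the 12.7 percentile in Scid.adh.2C2 and at the 60.3 percentile in the progenitor B line, the widest difference between the lines among the genes unmarked in both.

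**Figure D3:**
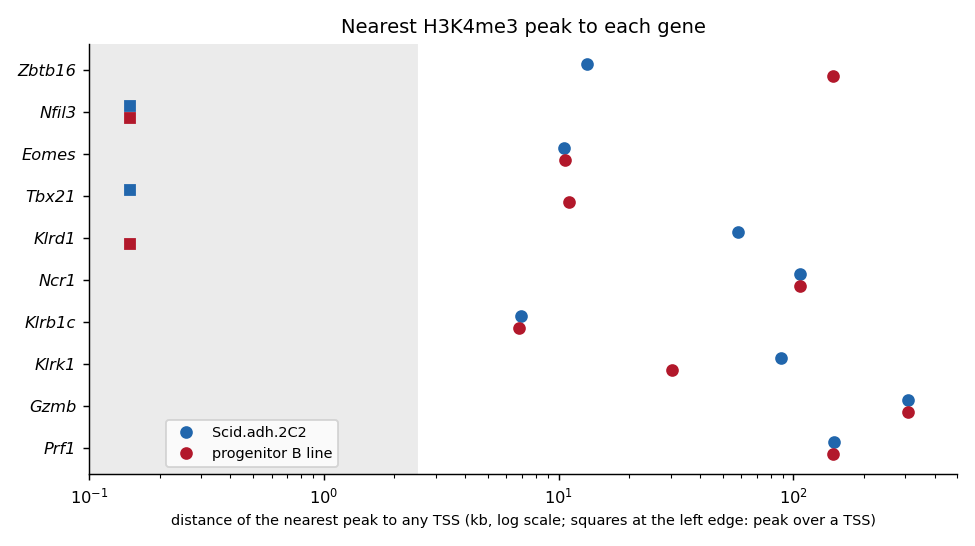
Distance from any TSS of each of the 10 genes to the nearest H3K4me3 peak (kb, log axis) in Scid.adh.2C2 (blue) and the progenitor B line (red), with squares at the left edge for a peak over a TSS and the 2500 bp promoter window in grey. The points of the lines lie close together for Eomes, Ncr1, Klrb1c, Gzmb and Prf1 and apart for Zbtb16, Tbx21, Klrd1 and Klrk1.

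The surroundings of the genes were marked to different degrees. Of the 10 nearest coding genes, 5 on each side, 8 were marked in each line around Tbx21, which was the most, and 5 in each around Zbtb16. Nfil3 had 5 in Scid.adh.2C2 and 6 in the progenitor B line. Around the receptor genes of the NK gene complex the counts were lower, with 1 and 2 for Klrd1 and for Klrk1 and 0 and 2 for Klrb1c. The median over all coding genes was 5 in each line, and 24.0% of genes in Scid.adh.2C2 and 22.0% in the progenitor B line had 2 or fewer marked neighbours.

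The genes fell into classes by the CpG content of their promoters, measured over the 500 bp on either side of the principal TSS. The 4 transcription factor genes were CpG-rich (observed over expected CpG of at least 0.6 and GC of at least 50%), with ratios of 0.996 for Nfil3, 0.761 for Tbx21, 0.749 for Zbtb16 and 0.633 for Eomes. The 6 receptor and effector genes were CpG-poor, from 0.217 for Klrk1 through 0.196 for Prf1, 0.175 for Klrd1, 0.160 for Gzmb and 0.125 for Ncr1 down to 0.0771 for Klrb1c. Over all coding genes, 73.2% of CpG-rich promoters were marked in Scid.adh.2C2 and 75.9% in the progenitor B line, and of CpG-poor ones 21.9% and 24.6%. Of the 4 CpG-rich genes of the group, 2 were marked in Scid.adh.2C2 and 1 in the progenitor B line. Of the 6 CpG-poor genes, 0 were marked in Scid.adh.2C2 and 1 in the progenitor B line. Tbx21 and Zbtb16 had nearly the same CpG ratio, and a promoter peak was found at the former in 1 line and at the latter in none.

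**Figure D4:**
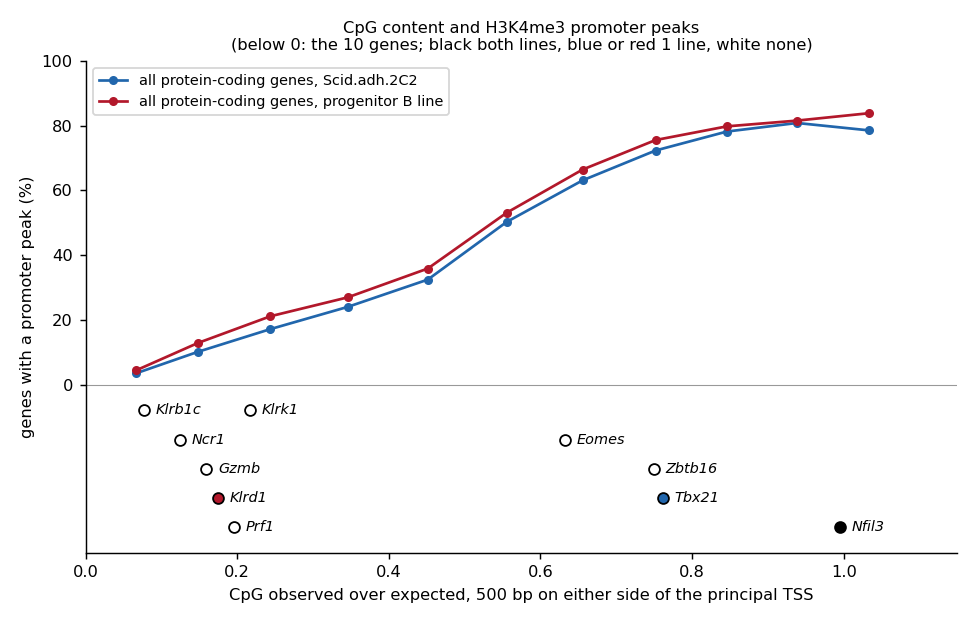
Share of all protein-coding genes with a promoter peak (%) by the observed over expected CpG ratio over the 500 bp on either side of the principal TSS, at the median of each bin, for Scid.adh.2C2 (blue) and the progenitor B line (red), and below the 0 line the ratios of the 10 genes, whose height has no scale. The share is 3.48% and 4.40% in the lowest bin and 78.5% and 83.8% in the highest. In Scid.adh.2C2 it is greatest, at 80.8%, in the bin before the highest. Filled points are marked genes (black both lines, blue Scid.adh.2C2, red the progenitor B line), and 3 of the 10 genes are filled.

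Short motifs of lymphoid factors were searched in the 8 RefSeq promoters on both strands. The RUNX core TGTGGT, bound by the RUNX factors of T and NK cells, was found in 5 of the 8, and in 16.8% of all 32851 promoters. The 5 were the CpG-poor genes Ncr1, Klrb1c, Klrk1, Gzmb and Prf1, and Nfil3, Eomes and Tbx21 had no match. Among all promoters with a CpG ratio under 0.3, 22.4% held the core, and among those of 0.6 or more 9.72%. For each of these 5 genes, 1 match is shown in a 30-base stretch because their CpG-poor promoters share the match. Klrd1, which is CpG-poor and marked in the progenitor B line, was not in the table and was not searched. Eomes was unmarked without a match, and a link between the match and the mark was not tested. The stretches are written 5′ to 3′ on the strand of the gene, with the core in capitals (as its reverse complement in Prf1).
Ncr1 (-185): ttagatccaaaaTGTGGTtaaatgtgttat
Klrb1c (-89): aggaaggaaagcTGTGGTcatggtgttttg
Klrk1 (-129): tgatagctgtgcTGTGGTtgtgtgggggtt
Gzmb (-34): tgtgggttctgcTGTGGTtacttcatgatt
Prf1 (-130): tgggaacctgtgACCACActctgggggcag
The number in brackets is the position of the first base of the core relative to the RefSeq start site. Ncr1 and Gzmb each held a second match. The T-box motif AGGTGTGA (1.28% of all promoters), the NFIL3 motifs TTACGTAA (0.119%) and TTATGTAA (0.938%), which differ at 1 base and cannot match the same stretch, and the TATA motif TATAAA (13.6%) were found in 0 of the 8. A match is a string of letters in this window and not a measured binding site.

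The wider NK and innate lymphoid program was described by 111 further genes in 7 lists by role. Of these, 38 (34.2%) were marked in Scid.adh.2C2 and 37 (33.3%) in the progenitor B line, below the 45.5% and 48.2% of all coding genes. The pooled shares do not describe every list. They include 23 killer cell lectin-like receptor genes, of which 4.35% were marked in each line. The highest shares were 61.1% of the transcription factors in Scid.adh.2C2 and 70% of the adaptors and kinases in the progenitor B line. Both lines marked 22 of them, Scid.adh.2C2 alone 16, the progenitor B line alone 15 and neither 58. The median highest promoter enrichment of the marked ones was 22.6-fold in Scid.adh.2C2 and 20.2-fold in the progenitor B line, where all marked promoters had medians of 27.1-fold and 21.7-fold. Over all coding genes, a mark in a single line was carried by 3.28% (Scid.adh.2C2) and 5.97% (the progenitor B line). The lists were chosen with earlier results of these data known, and they include T and B lineage genes such as Gata3 and Irf8. The counts of 16 and 15 can therefore not show whether the program itself differs from other genes in this respect, which was not tested.

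Transcription factors were the list most often marked in 1 line. Over all coding genes, the shares were 45.5% in Scid.adh.2C2, 48.2% in the progenitor B line and 42.2% in both. A single line marked 3.28% (Scid.adh.2C2) and 5.97% (the progenitor B line). Of all CpG-rich promoters, 73.2% and 75.9% were marked, and the CpG class of the listed genes is not given here. Of the 18 transcription factor genes, 11 were marked in Scid.adh.2C2 and 10 in the progenitor B line, 5 of them in both. The shared genes included Id2 (25.6-fold and 27.7-fold), the inhibitor of E proteins that innate lymphoid cells require. Among the 6 marked in Scid.adh.2C2 only were Gata3 (39.9-fold), the factor of T cells and type 2 innate lymphoid cells, Tox (31.7-fold), needed for innate lymphoid and helper T cell development, and Ikzf2 (28.4-fold), which encodes Helios. Gata3 and Tcf7 also stood among the T lineage markers above. The 5 marked in the progenitor B line only included Irf8 (28.9-fold), Bach2 (26.3-fold) and Zeb2 (21.1-fold), of which Irf8 and Bach2 act in B cells and Zeb2 in NK cell maturation.

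Receptor lists differed in how many genes were marked, and over all coding genes the shares were 45.5% in Scid.adh.2C2, 48.2% in the progenitor B line and 42.2% in both. Of 23 further killer cell lectin-like receptor genes, Klrb1f was marked in both lines (13.9-fold and 12.2-fold) and the other 22 in neither. Whether both lines carry all of these genes, and whether reads can be placed uniquely at them, was not tested. Of 17 other NK surface receptors, 6 were marked in Scid.adh.2C2 and 5 in the progenitor B line, among the latter Slamf7 (25.5-fold), a self-ligand receptor of NK and plasma cells that was unmarked in Scid.adh.2C2. Of 9 innate lymphoid subset receptors, Scid.adh.2C2 marked Il17rb (31.3-fold), the IL-25 receptor subunit, Il7r (20.1-fold) and Cxcr6 (6.87-fold), and the progenitor B line marked Il7r (13.9-fold) and Ccr6 (8.09-fold). Of 10 receptor adaptors and proximal kinases, 6 were marked in Scid.adh.2C2 and 7 in the progenitor B line, with 4 in both.

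Of 22 cytotoxic granule and death ligand genes, 9 were marked in Scid.adh.2C2 and 10 in the progenitor B line, 8 of them in both, where 45.5%, 48.2% and 42.2% of all coding genes were marked. The 8 included Lamp1 (27.6-fold and 20.9-fold), a lysosomal membrane protein gene, and Srgn (19.4-fold and 21.6-fold), the granule proteoglycan serglycin. Gzma, the granzyme A gene, which lies outside the cluster of Gzmb, was the single granzyme with a promoter peak (28.9-fold, Scid.adh.2C2 only), and Ctsc, which encodes the cathepsin that activates granzymes, was marked in the progenitor B line only (25.4-fold). Of 12 effector cytokines and chemokines, Tnf was marked in both (10.4-fold and 39.1-fold), Il13 in Scid.adh.2C2 only (11.3-fold) and Csf2 in the progenitor B line only (7.14-fold). Ifng, the principal NK cytokine, was marked in neither.

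**Figure D5:**
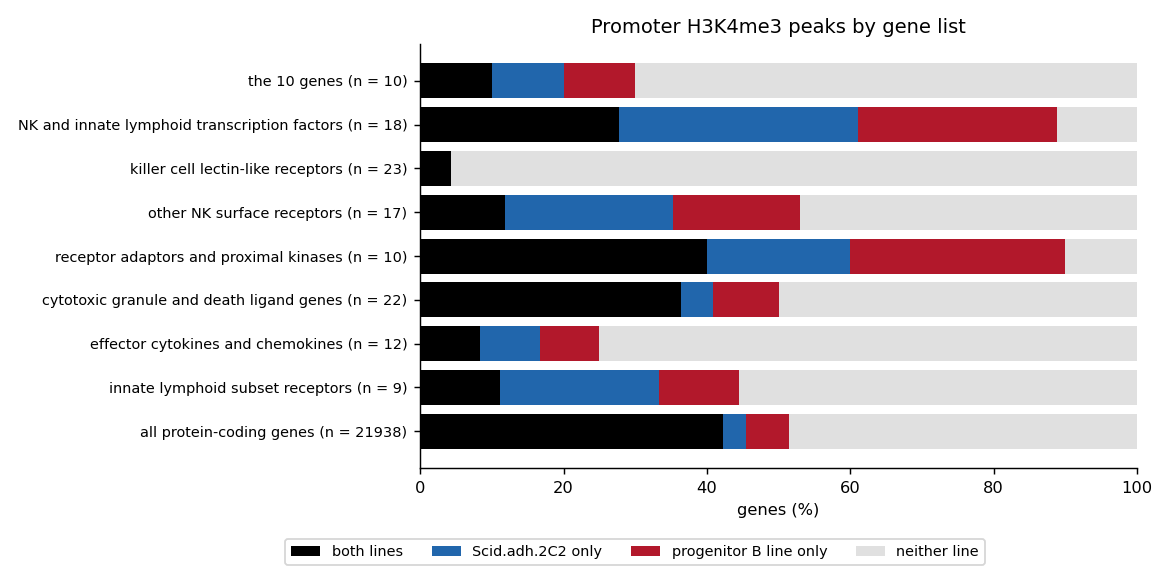
Share of genes (%) of the 10-gene group, the 7 lists by role and all protein-coding genes with an H3K4me3 promoter peak in both lines (black), in Scid.adh.2C2 only (blue), in the progenitor B line only (red) or in neither (grey), with the number of genes in brackets. Of the lists, transcription factors and adaptors have the smallest grey part and the killer cell lectin-like receptors the largest, with 22 of 23 genes unmarked.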

How the data were processed

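H3K4me3 ChIP-seq peak lists of Scid.adh.2C2 and of the Abelson-transformed progenitor B line were used, 1 per line. Per the study's methods and the submitters' processing notes, the authors trimmed reads with Trim Galore 0.6.7 and aligned them to mm10 (GRCm38) with Bowtie2 2.4.4. Narrow peaks were called with MACS2 2.2.7.1 at a q-value of 0.05 against input. The authors kept what they call the optimal peak set of the 2 libraries, at an irreproducible discovery rate (IDR) of 0.05. Of the deposited values, the authors' fold enrichment (a ratio to background), −log10 p-value and IDR score were used as they stand, within a list only. Depth and the treatment of reads with several matches are not given in the sources used here.

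Peaks were assigned to GENCODE vM21 genes on chromosomes 1 to 19, X and Y where at least 1 bp lay within 2500 bp of any TSS. Highest fold, width, rank, neighbours (5 per side), CpG content and 31-base word uniqueness were computed with Python 3.11.15, numpy 2.4.6 and pandas 2.3.3, and plots with matplotlib 3.10.9. Percentiles count values at or below the one given. The assignment was tested on simulated data of 400 genes, in which 200 of 200 planted promoter peaks were found. No test between lines was possible, since each line has 1 combined list. Named were the 10 genes, their nearest marked neighbours, per line the 5 list genes with the highest enrichment marked in that line only, and all marked genes of lists with 3 or fewer in a line. Id2, Lamp1, Srgn, Ifng, the Klrc genes and the genes of the NK gene complex were named after their values were seen. The members and lists were chosen with earlier results of these data known. 1 lineage marker is not reported here. The study's other data types were not analysed here.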

Additional observations from a re-analysis of the deposited data

How the results depend on the processing

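The promoter calls of the 10 genes were recomputed under 9 alternatives (windows of 1000 and 5000 bp, peaks of at least 10-fold, peaks with an IDR score of 1000, lists of equal length, summit inside the window, overlap of at least 500 bp, most upstream TSS only, and TSSs of coding transcripts only), and under RefSeq start sites as 1 alternative chosen after seeing the data. Nfil3, Tbx21 and Klrd1 were marked in the same lines under all of them except when only peaks of at least 10-fold were used. Klrd1 was then lost, and the number of genes marked in the progenitor B line fell to 1 and the number marked in the progenitor B line only to 0, since its peak had 8.55-fold enrichment. The other 38 recomputed counts were unchanged, and the highest fold of each marked gene stayed the same wherever it was still marked. No paired analysis was possible because each list combines both replicates and holds no value per replicate, and for the same reason no replicate could be left out. The Klrd1 call therefore rests on 1 weak peak of 1 list.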
